A study of Arabidopsis thaliana with 6 samples.

Results

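The light-harvesting, chlorophyll synthesis and Rubisco genes of Arabidopsis thaliana were followed as 41 nuclear loci, of the 26185 loci that were read anywhere in the series. Members were taken by locus name, from what the genes encode: 6 LHCA and 14 LHCB antenna genes, ELIP1, ELIP2 and PSBS, 9 chlorophyll synthesis genes, 3 protochlorophyllide oxidoreductase (POR) genes, 4 Rubisco small subunit (RBCS) genes, and GLK1 and GLK2. All 41 had reads in all 6 libraries, and all 41 were tested. In dark-grown seedlings of a wei8 tar2 line, ELIP2 and GLK2 rose relative to wild type, and in kynurenine-fed wild-type seedlings ELIP2 rose. Each of these edgeR calls was lost in some of the alternative fits. ELIP1 averaged higher than in untreated wild type in both groups but did not pass the edgeR test. All 20 antenna genes averaged higher in the wei8 tar2 line. None passed the edgeR test, whose estimate of spread also takes in the 2 kynurenine libraries. The antenna genes also separated the 2 kynurenine libraries from each other, 1 lying below and 1 above all other libraries in most of them. A difference between these libraries was known when the set was chosen.

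Messenger RNA was sequenced from whole etiolated seedlings of the accession Col-0, which had spent 3 days in darkness at 22 °C after 3 days of imbibition at 4 °C and a few hours of light to start germination. wei8tar2_MS is a line labelled wei8-/- tar2+/-, on MS mineral medium; WEI8 is another name of TAA1, and the labels do not say which seedlings of a segregating progeny were pooled. Col_Kyn is wild-type Col-0 on MS with kynurenine, labelled 25 mM (the unit was not verifiable), and Col_MS is wild-type Col-0 on MS alone. Each group has 2 libraries, described as biological repeats. TAA1 and TAR2 encode aminotransferases of the main route from tryptophan to the auxin indole-3-acetic acid, and L-kynurenine is known as an inhibitor of these enzymes. Library totals were 26943103 and 25129503 reads for wei8tar2_MS, 31817638 and 18143395 for Col_Kyn, and 26753309 and 28243135 for Col_MS. Both genes named in the label of the line were lowest in its libraries. TAA1 had 7.89 and 8.36 CPM (counts scaled to a library total of 1000000 reads) in wei8tar2_MS, 38.4 and 41.5 in Col_Kyn, and 37.9 and 38.7 in Col_MS. TAR2 had 2.90 and 2.01 CPM in wei8tar2_MS, 7.08 and 6.29 in Col_Kyn, and 10.1 and 8.11 in Col_MS. Both Col_Kyn libraries thus also lay below both Col_MS libraries for TAR2. How its level in wei8tar2_MS relates to the tar2+/- label was not tested.

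LHCA and LHCB proteins bind chlorophyll and carry light energy to photosystem I and photosystem II; LHCB1, LHCB2 and LHCB3 form the major outer antenna, and LHCB4, LHCB5 and LHCB6 are the minor antenna between it and the core. In darkness seedlings make little of the antenna and stop chlorophyll synthesis at protochlorophyllide, which POR enzymes hold until light lets them reduce it. On illumination, phytochromes and the GLK transcription factors raise the transcription of antenna and chlorophyll synthesis genes, while RBCS genes supply the small subunit of the enzyme that fixes carbon dioxide.

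The 250 bases before the annotated gene start (TAIR10.1 RefSeq) are printed for 5 antenna genes, LHCB1.4 among them as the member with the largest differences, and for the 2 members that rose, so that their letters can be compared. Of the 5, all but LHCB1.4 were picked because they hold the motif CCAATC, which 10 of 20 antenna genes lack. The windows are LHCB1.3 (chr1:10477635-10477884, + strand), LHCB1.4 (chr2:14524357-14524606, + strand), LHCB1.5 (chr2:14523569-14523818, − strand), LHCB2.3 (chr3:10255656-10255905, + strand), LHCB4.2 (chr3:2717307-2717556, + strand, overlapping the neighbouring gene AT3G08930), GLK2 (chr5:17798012-17798261, + strand) and ELIP2 (chr4:8417992-8418241, + strand). Each runs 5′ to 3′ towards the gene, and capitals mark any of 5 motifs known from light- or clock-regulated plant promoters.
LHCB1.3: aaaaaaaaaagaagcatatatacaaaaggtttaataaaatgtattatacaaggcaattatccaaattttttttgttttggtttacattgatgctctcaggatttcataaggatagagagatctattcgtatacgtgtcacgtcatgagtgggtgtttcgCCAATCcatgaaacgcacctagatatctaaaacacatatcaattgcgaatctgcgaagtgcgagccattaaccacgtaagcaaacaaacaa
LHCB1.4: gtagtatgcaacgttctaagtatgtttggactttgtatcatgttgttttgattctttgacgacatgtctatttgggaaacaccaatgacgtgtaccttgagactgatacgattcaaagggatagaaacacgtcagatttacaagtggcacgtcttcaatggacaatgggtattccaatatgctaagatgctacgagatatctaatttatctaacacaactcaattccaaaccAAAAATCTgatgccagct
LHCB1.5: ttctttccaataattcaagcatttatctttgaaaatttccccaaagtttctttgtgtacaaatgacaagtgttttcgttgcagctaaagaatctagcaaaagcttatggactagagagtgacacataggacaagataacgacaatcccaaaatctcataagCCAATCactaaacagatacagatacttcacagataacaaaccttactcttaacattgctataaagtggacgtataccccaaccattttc
LHCB2.3: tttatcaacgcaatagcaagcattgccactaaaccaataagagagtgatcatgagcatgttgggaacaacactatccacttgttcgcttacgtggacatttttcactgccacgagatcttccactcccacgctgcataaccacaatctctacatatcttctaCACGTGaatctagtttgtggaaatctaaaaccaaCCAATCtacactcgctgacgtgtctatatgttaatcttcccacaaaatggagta
LHCB4.2: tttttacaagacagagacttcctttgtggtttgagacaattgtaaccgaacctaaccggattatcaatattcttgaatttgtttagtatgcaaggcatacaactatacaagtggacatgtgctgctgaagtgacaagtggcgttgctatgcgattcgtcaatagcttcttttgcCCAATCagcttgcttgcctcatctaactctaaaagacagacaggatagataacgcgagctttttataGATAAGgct
GLK2: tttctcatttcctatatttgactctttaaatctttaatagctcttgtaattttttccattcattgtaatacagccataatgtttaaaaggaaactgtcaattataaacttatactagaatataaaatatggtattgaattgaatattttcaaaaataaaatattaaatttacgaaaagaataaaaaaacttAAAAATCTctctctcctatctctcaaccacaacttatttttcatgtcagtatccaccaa
ELIP2: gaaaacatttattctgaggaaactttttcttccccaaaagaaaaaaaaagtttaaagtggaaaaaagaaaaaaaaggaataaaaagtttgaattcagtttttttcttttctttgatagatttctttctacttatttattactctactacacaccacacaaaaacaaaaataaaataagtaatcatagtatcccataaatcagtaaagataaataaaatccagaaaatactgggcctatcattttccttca

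The motifs were searched on both strands, and no letters of 1 contain another. CCAATC, the CCAAT box with 1 more base, stood before 10 of the 20 antenna genes and 2 of the 21 other members, against 10.2% of the 27443 nuclear protein-coding promoters of the same length. Its copies before antenna genes begin between 35 and 194 bases before the gene start, at 91 in LHCB1.3, 89 in LHCB1.5, 54 in LHCB2.3 and 76 in LHCB4.2. LHCB1.1, LHCB1.2, LHCB1.4 and LHCB3, 4 of the 9 major antenna genes, do not hold it in this window, nor do GLK2 and ELIP2. The G-box CACGTG stood before 4 of 20 antenna genes and 4 of 21 others, against 6.49% of all promoters. The I-box GATAAG stood before 4 of 20 and 4 of 21, against 12.3%. The CCA1-binding site (AAAAATCT or AACAATCT) stood before 3 of 20 and 3 of 21, against 8.38%; the copies in GLK2 and LHCB1.4 begin 59 and 18 bases before the start. The evening element AAAATATCT stood before 1 of 20 and 2 of 21, against 2.36%. ELIP2 held none of the 5 in this window. These are matches of letters and not binding sites.

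Between genes, levels were compared per length, in the deposited RPKM (reads per kilobase of gene and per 1000000 mapped reads). RBCS1A had the highest mean of the members, 3062 RPKM over the 6 libraries (rank 7 of all genes), followed by LHCB1.3 with 2614 RPKM (rank 10), whose range over libraries was 1223 to 4431 RPKM. PORB averaged 1035 RPKM and PORA, the isoform known to be abundant in etiolated tissue and lost in light, 668.9 RPKM, against 25.8 RPKM for PORC, the isoform known from green tissue. The lowest member by this measure was LHCB4.3, at 7.54 RPKM. The deposited lengths differ from the longest RefSeq transcripts, at 1747 against 1321 bases for LHCB4.3 and 1064 against 1465 for LHCB2.3. The order of members with close values therefore depends on the length used. Within the LHCB1 family, LHCB1.3 held 86.3% and 86.8% of the summed RPKM in wei8tar2_MS, 89.3% and 85.7% in Col_Kyn, and 88.8% and 88.4% in Col_MS.

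Near-identical family members limit how reads are assigned, since the deposited counts hold uniquely mapped reads. Of the 50-base windows of the transcript, 10.6% (LHCB1.2) to 20.5% (LHCB1.1) recurred elsewhere in the genome for the 5 LHCB1 genes, 22.7% for LHCB2.1, 28.2% for LHCB2.2, 10.2% for LHCA2, and 14.0%, 21.4% and 18.3% for RBCS1B, RBCS2B and RBCS3B. The split of reads among these genes is therefore uncertain. RBCS1A had 1.48%, and the other members had none.

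The Col_Kyn libraries stood apart from each other in these genes, and every value for kynurenine below rests on both. That these libraries differ was known when the set was chosen, so the counts below describe the gap and do not test it. The 20 antenna genes together had 2863 CPM in Col_Kyn replicate 1 and 9023 CPM in replicate 2. The same sum was 6185 and 6378 CPM in wei8tar2_MS, and 4128 and 4663 CPM in Col_MS. Col_Kyn replicate 2 lay above replicate 1 in 20 of 20 antenna genes, against 46.8% of the 21326 tested genes, and by over 2-fold in 17 of them, against 2.72%. The direction was shared by the other groups. Their replicate 2 was higher in 17 of 20 antenna genes in wei8tar2_MS and 17 of 20 in Col_MS, with 0 over 2-fold in either. Of the tested genes, 10946 were higher in replicate 2 in wei8tar2_MS and 10599 in Col_MS. Replicate 1 was the lowest of the 6 libraries in 19 of the 20 (16.8% of tested genes), and replicate 2 was the highest in 19 (15.1%); both held in 18 (4.27%). The median log2 ratio of replicate 2 over replicate 1 was 1.52 over the antenna genes in Col_Kyn, beside 0.06 in wei8tar2_MS and 0.16 in Col_MS, and -0.02 over all tested genes in Col_Kyn.

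The gap within Col_Kyn was widest in the major antenna. LHCB1.4 was 12.3-fold higher in replicate 2 than in replicate 1, and the smallest gap among antenna genes was 1.26-fold, in LHCA5. Medians of the log2 ratio were 1.87 for the major antenna, 1.22 for the minor antenna, 1.09 for LHCA, 0.67 for POR, 0.60 for RBCS, 0.52 for chlorophyll synthesis and 0.10 for ELIP1, ELIP2 and PSBS. ELIP2, at 0.955-fold, was the only member of the 41 that was not higher in replicate 2. Among genes outside the set, photosystem I and II subunits had medians of 1.17 and 0.86 and Calvin cycle genes 0.66, while light-responsive genes other than the members had 0.20, clock genes -0.01, shoot markers 0.24 and root markers -0.30. Replicate 2 also had the fewest reads of the 6 libraries and replicate 1 the most; the part of depth in this gap was not tested. Because the RNA came from whole seedlings, a change in the amount of a tissue cannot be told apart from a change in RNA per cell.

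**Figure D1:**
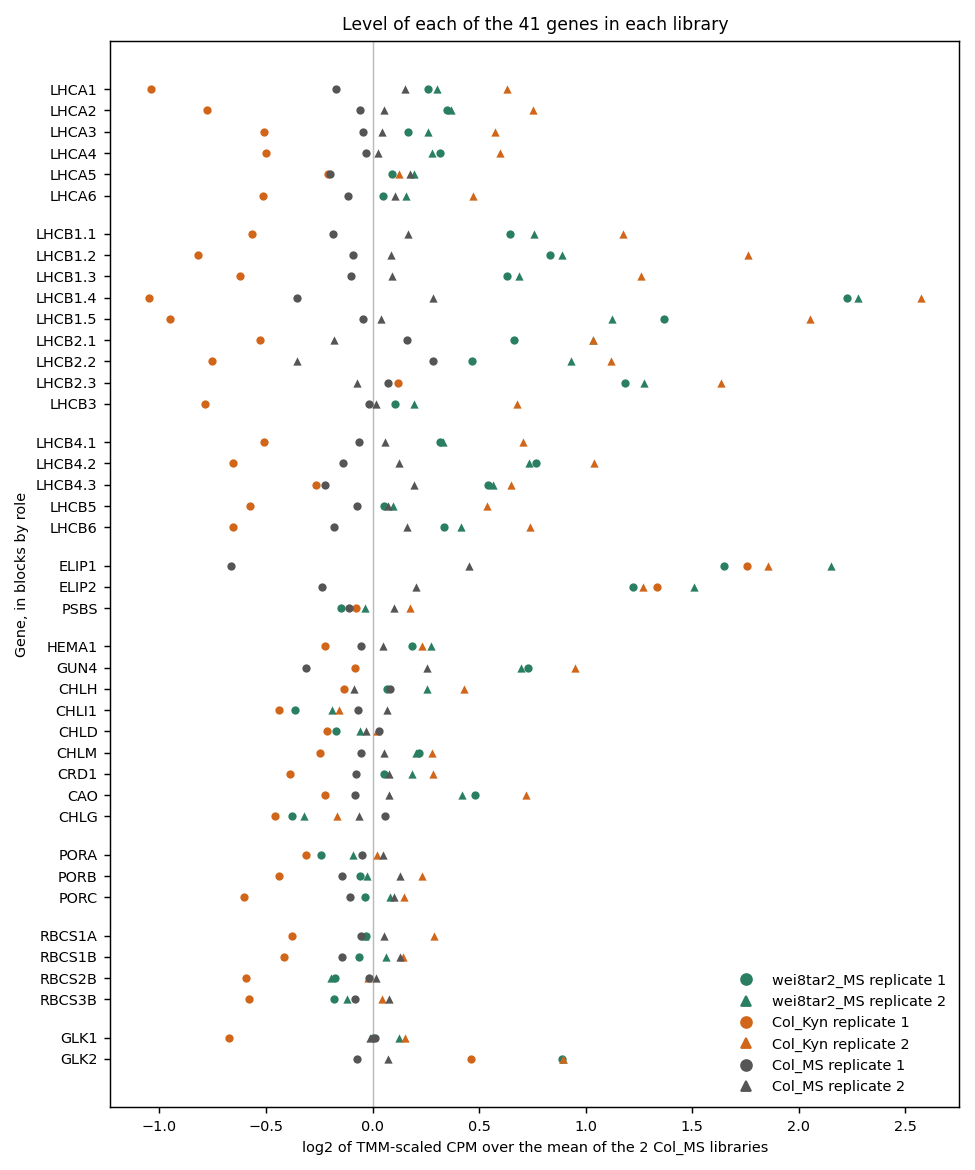
The horizontal axis gives log2 of CPM over the mean of the 2 Col_MS libraries for each of the 41 genes, 1 row per gene in blocks by role; green is wei8tar2_MS, orange Col_Kyn and grey Col_MS, with circles for replicate 1 and triangles for replicate 2. In 18 of 20 antenna genes the orange circle is the lowest point and the orange triangle the highest, while the green points lie close together.

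In the major antenna, wei8tar2_MS lay above Col_MS in both libraries for all 9 genes, against 26.6% of tested genes whose 2 wei8tar2_MS libraries were both above both Col_MS libraries, and the median log2 fold change was 0.86, against -0.02 for all tested genes. None of the 9 passed edgeR's quasi-likelihood test at a Benjamini-Hochberg adjusted p under 0.05, a threshold that 1.08% of tested genes passed (0.563% higher and 0.516% lower). LHCB1.3 (AT1G29930, chr1:10477885-10479114) had 3100 and 3224 CPM in wei8tar2_MS, 1301 and 4796 CPM in Col_Kyn, and 1871 and 2136 CPM in Col_MS. The wei8tar2_MS values exceed both Col_MS values and lie between the 2 Col_Kyn values. Its log2 fold change was 0.66 ± 0.49 in wei8tar2_MS over Col_MS (SE, edgeR adjusted p = 0.488) and 0.60 ± 0.49 in Col_Kyn over Col_MS (adjusted p = 0.569).

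LHCB1.4 (AT2G34430, chr2:14524607-14525918), a low-level member of the same family, had 14.6 and 15.1 CPM in wei8tar2_MS, 1.51 and 18.5 CPM in Col_Kyn, and 2.44 and 3.79 CPM in Col_MS. Its wei8tar2_MS mean was 4.76 times its Col_MS mean, the widest ratio of the 41 genes. The log2 fold change was 2.25 ± 0.89 in wei8tar2_MS over Col_MS (edgeR adjusted p = 0.212) and 1.62 ± 0.90 in Col_Kyn over Col_MS (adjusted p = 0.405). LHCB1.5, which neighbours it on chromosome 2, had 153 and 129 CPM in wei8tar2_MS, 30.7 and 246 CPM in Col_Kyn, and 57.5 and 61.0 CPM in Col_MS. In both genes the 2 wei8tar2_MS libraries lie above both Col_MS libraries, and the Col_Kyn libraries lie on either side of every other library.

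In the other major antenna genes except LHCB2.3, Col_Kyn replicate 1 was again the lowest library and replicate 2 the highest. LHCB1.2 had 141 and 146 CPM in wei8tar2_MS, 44.8 and 268 CPM in Col_Kyn, and 74.0 and 83.9 CPM in Col_MS, and LHCB1.1 had 203 and 220, 87.8 and 294, and 114 and 146 CPM in the same groups. LHCB2.3 had 12.3 and 13.1 CPM in wei8tar2_MS, 5.86 and 16.8 CPM in Col_Kyn, and 5.68 and 5.13 CPM in Col_MS. It was the only antenna gene with both Col_Kyn libraries above both Col_MS libraries, which 20.2% of tested genes showed. LHCB2.1 and LHCB2.2 lay between 4.23 and 20.02 CPM. LHCB3, the third major antenna protein, was nearest to flat, with 106 and 113 CPM in wei8tar2_MS, 57.4 and 158 CPM in Col_Kyn, and 97.8 and 100 CPM in Col_MS. DESeq2 called 1 of the 9, LHCB2.3, in wei8tar2_MS over Col_MS (DESeq2 adjusted p = 0.0408, beside 0.16 by edgeR), and called 3.21% of tested genes higher and 3.04% lower.

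In the minor antenna, 4 of 5 genes had both wei8tar2_MS libraries above both Col_MS libraries, as 26.6% of tested genes did, and the median log2 fold change was 0.38. LHCB4.2 (AT3G08940, chr3:2717557-2718923), 1 of the 3 genes of the linker protein CP29, had 244 and 239 CPM in wei8tar2_MS, 91.1 and 295 CPM in Col_Kyn, and 130 and 157 CPM in Col_MS. Its log2 fold change was 0.75 ± 0.45 in wei8tar2_MS over Col_MS (edgeR adjusted p = 0.384) and 0.43 ± 0.45 in Col_Kyn over Col_MS (adjusted p = 0.665). LHCB5, the gene of CP26 and the most abundant minor antenna gene per length, had 506 and 520 CPM in wei8tar2_MS, 328 and 708 CPM in Col_Kyn, and 463 and 512 CPM in Col_MS, so that its wei8tar2_MS and Col_MS libraries overlapped. Its log2 fold change was 0.07 ± 0.31 in wei8tar2_MS (edgeR adjusted p = 0.921) and 0.09 ± 0.31 in Col_Kyn (adjusted p = 0.919). LHCB4.1 lay between 266 and 617 CPM, LHCB6 between 143 and 376 CPM and LHCB4.3 between 8.97 and 16.9 CPM, each lowest in Col_Kyn replicate 1 and highest in replicate 2.

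The photosystem I antenna had the smallest median of the antenna classes. All 6 LHCA genes had a positive log2 fold change in wei8tar2_MS over Col_MS, as 46.8% of tested genes did, with a median of 0.25. Both wei8tar2_MS libraries lay above both Col_MS libraries in 4 of 6, as in 26.6% of tested genes. LHCA2 (AT3G61470), the most abundant per length, had 389 and 394 CPM in wei8tar2_MS, 178 and 513 CPM in Col_Kyn, and 292 and 317 CPM in Col_MS. The log2 fold change was 0.36 ± 0.40 in wei8tar2_MS (edgeR adjusted p = 0.658) and 0.18 ± 0.40 in Col_Kyn (adjusted p = 0.861). LHCA1 lay between 25.1 and 79.9 CPM, LHCA3 between 148 and 314, LHCA4 between 94.1 and 202, LHCA5 between 20.5 and 27.1 and LHCA6 between 21.5 and 42.6. LHCA5, known as a minor, low-level subunit, was the only antenna gene whose highest library was not Col_Kyn replicate 2, and LHCB2.3 the only one whose lowest was not Col_Kyn replicate 1.

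Over the 20 antenna genes, 20 had a positive log2 fold change in wei8tar2_MS over Col_MS (46.8% of tested genes) and 17 had both libraries above both (26.6%). The median was 0.47, with 0 calls (1.08% of tested genes), and 2 reached an unadjusted p under 0.05, which 20.6% of tested genes did. In Col_Kyn over Col_MS, 19 of 20 were positive (47.1% of tested genes), with a median of 0.23 and 0 calls, and 1 had an unadjusted p under 0.05, as 17.0% of tested genes had. Without Col_Kyn replicate 1 all 20 were positive in Col_Kyn over Col_MS. Without Col_Kyn replicate 2 only 1 was positive. Calls in wei8tar2_MS over Col_MS also moved with these libraries, which share its estimate of spread. With only wei8tar2_MS and Col_MS fitted, edgeR called LHCB1.2, LHCB1.4, LHCB1.5 and LHCB2.3 higher. Calls of antenna genes in such fits are therefore not read as results about these genes.

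**Figure D2:**
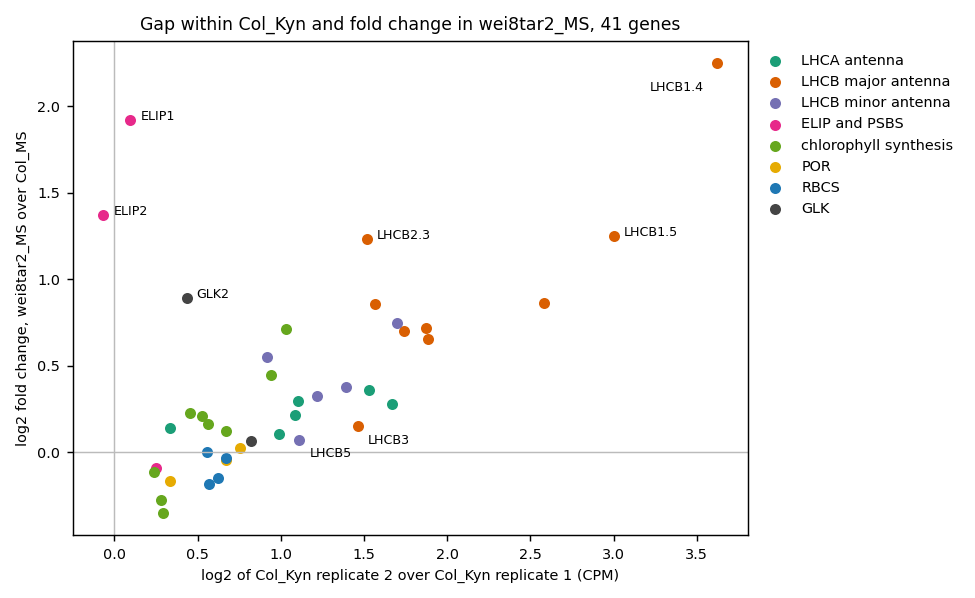
Each point is 1 of the 41 genes, coloured by role; the horizontal axis is log2 of Col_Kyn replicate 2 over replicate 1 and the vertical axis the log2 fold change of wei8tar2_MS over Col_MS, which uses other libraries. LHCB1.4 lies farthest out on both axes, at 12.3-fold and 2.25, while ELIP1, ELIP2 and GLK2 lie high at a small gap.

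The early light-induced proteins ELIP1 and ELIP2, relatives of the antenna proteins that accumulate during greening and light stress, showed another pattern. ELIP2 (AT4G14690, chr4:8418242-8419325) had 97.6 and 119 CPM in wei8tar2_MS, 106 and 101 CPM in Col_Kyn, and 35.5 and 48.0 CPM in Col_MS. All 4 libraries of wei8tar2_MS and Col_Kyn lay above both of Col_MS, and the 2 Col_Kyn libraries were alike. ELIP2 rose by a log2 fold change of 1.37 ± 0.17 in wei8tar2_MS (SE, edgeR adjusted p = 0.0301) and of 1.304 ± 0.17 in Col_Kyn (adjusted p = 0.034). It was the only member called in Col_Kyn over Col_MS, where 0.366% of tested genes were called (0.145% higher and 0.220% lower), and that call was lost when only Col_Kyn and Col_MS were fitted (log2 fold change 1.304) and without any 1 library except Col_MS replicate 2, with log2 fold changes of 1.102 to 1.558. The call in wei8tar2_MS was lost without Col_MS replicate 1 and without either wei8tar2_MS library, with values of 1.17 to 1.64.

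ELIP1 (AT3G22840, chr3:8084405-8085669) had 121 and 171 CPM in wei8tar2_MS, 130 and 139 CPM in Col_Kyn, and 24.3 and 52.7 CPM in Col_MS. The groups did not overlap with Col_MS, whose own libraries differed by over 2-fold. The log2 fold change was 1.92 ± 0.34 in wei8tar2_MS (edgeR adjusted p = 0.0511) and 1.81 ± 0.34 in Col_Kyn (adjusted p = 0.0889); DESeq2 called ELIP1 in both, with an adjusted p of 0.00319 in wei8tar2_MS. PSBS, the photosystem II protein that triggers heat dissipation of excess light, had 259 and 281 CPM in wei8tar2_MS, 273 and 325 CPM in Col_Kyn, and 266 and 308 CPM in Col_MS. All 3 groups overlapped, with log2 fold changes of -0.09 ± 0.14 in wei8tar2_MS (edgeR adjusted p = 0.757) and 0.06 ± 0.14 in Col_Kyn (adjusted p = 0.874).

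GLK2 (AT5G44190, chr5:17798262-17800926), 1 of a pair of GARP-family transcription factors that activate antenna and chlorophyll synthesis genes, had 37.6 and 37.7 CPM in wei8tar2_MS, 27.9 and 37.8 CPM in Col_Kyn, and 19.3 and 21.3 CPM in Col_MS. The 4 libraries of wei8tar2_MS and Col_Kyn all lay above Col_MS. GLK2 rose by a log2 fold change of 0.89 ± 0.15 in wei8tar2_MS (SE, edgeR adjusted p = 0.0488), a call lost with limma-voom, with upper-quartile scaling and without Col_MS replicate 1 or either wei8tar2_MS library, with log2 fold changes of 0.82 to 0.99 over the fits that left out 1 library. In Col_Kyn it was 0.69 ± 0.15 (edgeR adjusted p = 0.116), a value that DESeq2 called. GLK1, its partner, had 20.9 and 22.8 CPM in wei8tar2_MS, 13.1 and 23.2 CPM in Col_Kyn, and 21.1 and 20.8 CPM in Col_MS, and its groups overlapped.

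**Figure D3:**
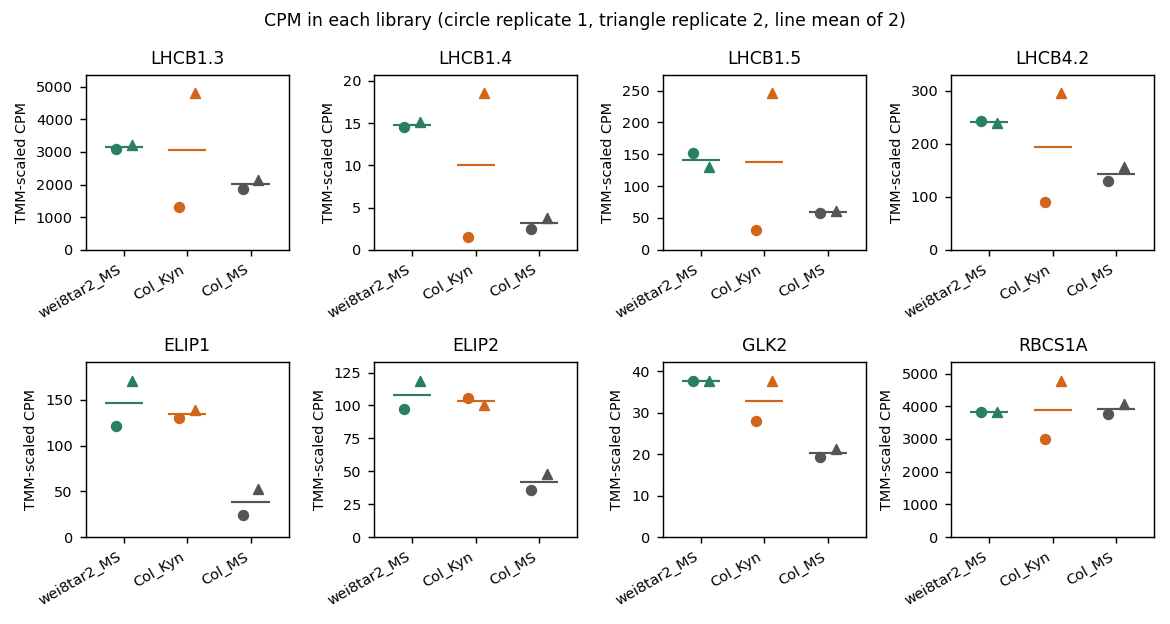
Panels give CPM in each library of 8 genes on axes that start at 0, with circles for replicate 1, triangles for replicate 2 and a line at the mean of 2, and the groups wei8tar2_MS, Col_Kyn and Col_MS from left to right. The 4 LHCB genes show the wide Col_Kyn gap, ELIP1, ELIP2 and GLK2 have wei8tar2_MS and Col_Kyn above Col_MS, and RBCS1A has overlapping groups.

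Of the 9 chlorophyll synthesis genes, 4 had both wei8tar2_MS libraries above both Col_MS libraries (26.6% of tested genes) and 3 had both below (29.0%). The median log2 fold change was 0.17, with 0 calls. The largest value was that of GUN4, which binds porphyrin and activates magnesium chelatase: 68.3 and 66.8 CPM in wei8tar2_MS, 39.0 and 79.8 CPM in Col_Kyn, and 33.2 and 49.4 CPM in Col_MS. Its log2 fold change was 0.71 ± 0.32 in wei8tar2_MS (edgeR adjusted p = 0.256) and 0.52 ± 0.32 in Col_Kyn (adjusted p = 0.45). CAO, the oxygenase that makes chlorophyll b, had 26.6 and 25.5 CPM in wei8tar2_MS, 16.4 and 31.5 CPM in Col_Kyn, and 18.1 and 20.1 CPM in Col_MS. HEMA1, which encodes the glutamyl-tRNA reductase that opens the pathway, and CHLM, the magnesium protoporphyrin methyltransferase, were the other 2 above Col_MS, at 107 and 114 CPM and at 138 and 137 CPM in wei8tar2_MS, against 90.8 and 97.4 CPM and 114 and 123 CPM in Col_MS.

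The 3 genes below were CHLI1 and CHLD, subunits of magnesium chelatase, and CHLG, the chlorophyll synthase that adds the phytol tail. CHLG had 75.3 and 78.4 CPM in wei8tar2_MS, 71.3 and 87.2 CPM in Col_Kyn, and 102 and 93.7 CPM in Col_MS. CHLI1 had 149 and 168 CPM in wei8tar2_MS, 142 and 172 CPM in Col_Kyn, and 183 and 201 CPM in Col_MS. In these 2 genes both Col_Kyn libraries also lay below both Col_MS libraries, as in 23.4% of tested genes. CHLD lay between 146 and 174 CPM over the 6 libraries, and CHLH, the third chelatase subunit, between 325 and 479 CPM. CRD1, a subunit of the cyclase and the most abundant of the 9 per length, had 309 and 338 CPM in wei8tar2_MS, 228 and 362 CPM in Col_Kyn, and 281 and 313 CPM in Col_MS; its log2 fold change was 0.12 ± 0.21 in wei8tar2_MS (edgeR adjusted p = 0.784) and -0.01 ± 0.21 in Col_Kyn (adjusted p = 0.984).

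The POR genes, whose products reduce protochlorophyllide in light, differed little. PORA had 1152 and 1276 CPM in wei8tar2_MS, 1097 and 1382 CPM in Col_Kyn, and 1313 and 1408 CPM in Col_MS, a log2 fold change of -0.16 ± 0.15 in wei8tar2_MS (edgeR adjusted p = 0.576). Both wei8tar2_MS libraries lay below both Col_MS libraries, and Col_Kyn overlapped with Col_MS. PORB had 1839 and 1886 CPM in wei8tar2_MS, 1413 and 2251 CPM in Col_Kyn, and 1739 and 2098 CPM in Col_MS, with log2 fold changes of -0.04 ± 0.22 in wei8tar2_MS (edgeR adjusted p = 0.939) and -0.07 ± 0.22 in Col_Kyn (adjusted p = 0.912). PORC, between 30.4 and 51.2 CPM, had a log2 fold change of -0.19 ± 0.22 in Col_Kyn (edgeR adjusted p = 0.707).

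The Rubisco small subunit genes showed no call by edgeR, DESeq2 or limma-voom, with median log2 fold changes of -0.09 in wei8tar2_MS and -0.17 in Col_Kyn. RBCS1A (AT1G67090, chr1:25048158-25049667) had 3832 and 3825 CPM in wei8tar2_MS, 3011 and 4784 CPM in Col_Kyn, and 3770 and 4060 CPM in Col_MS. The wei8tar2_MS libraries lay inside the range of Col_MS, with a log2 fold change of -0.03 ± 0.21 (edgeR adjusted p = 0.953), and the value in Col_Kyn was -0.01 ± 0.21 (adjusted p = 0.993). RBCS2B, in a cluster with RBCS1B and RBCS3B on chromosome 5, had 1257 and 1241 CPM in wei8tar2_MS, 941 and 1397 CPM in Col_Kyn, and 1402 and 1435 CPM in Col_MS. It lay below Col_MS in both libraries of both groups, with log2 fold changes of -0.18 ± 0.19 in wei8tar2_MS (edgeR adjusted p = 0.622) and -0.28 ± 0.19 in Col_Kyn (adjusted p = 0.484). RBCS1B lay between 450 and 662 CPM and RBCS3B between 1338 and 2113 CPM. Col_Kyn replicate 1 was the lowest library for all 4 RBCS and all 3 POR genes.

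Over all 41 members, wei8tar2_MS over Col_MS gave 2 higher and 0 lower calls (0.563% and 0.516% of tested genes), 32 positive values (46.8%) and a median log2 fold change of 0.23. Of the members, 24 had both libraries above and 6 both below, beside 26.6% and 29.0% of tested genes. Col_Kyn over Col_MS gave 1 higher and 0 lower calls (0.145% and 0.220% of tested genes), 28 positive values (47.1%) and a median of 0.13. In it, 4 members lay above and 3 below, beside 20.2% and 23.4% of tested genes. Both comparisons use the same Col_MS libraries. DESeq2 called LHCB2.3, ELIP1, ELIP2 and GLK2 in wei8tar2_MS and ELIP1, ELIP2 and GLK2 in Col_Kyn, where it called 2.00% of tested genes higher and 1.52% lower. Without Col_Kyn replicate 2 the positive members in Col_Kyn over Col_MS numbered 4, and without replicate 1 they numbered 38. No member was called in wei8tar2_MS over Col_MS without Col_MS replicate 1 or without either wei8tar2_MS library.

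**Figure D4:**
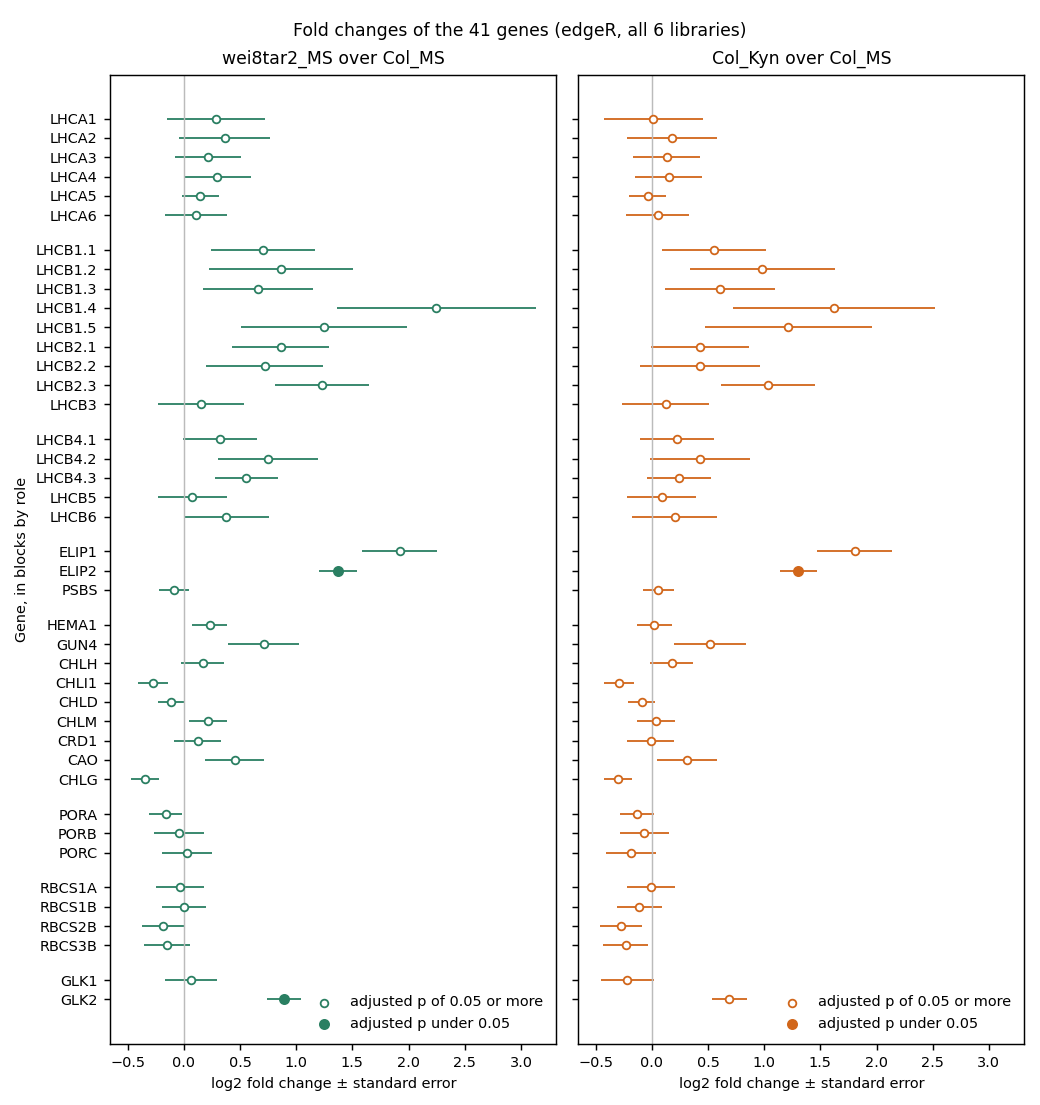
Log2 fold changes with standard errors from edgeR are drawn for each of the 41 genes, in wei8tar2_MS over Col_MS on the left and Col_Kyn over Col_MS on the right; filled circles passed an adjusted p under 0.05. ELIP2 is filled in both panels and GLK2 on the left, and LHCB1.4 has the longest error bar in both panels.

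Set directly against each other, wei8tar2_MS and Col_Kyn gave no member called by edgeR, DESeq2 or limma-voom, no member at an unadjusted p under 0.05 in edgeR and no member whose libraries did not overlap (16.8% of tested genes had both wei8tar2_MS libraries above both Col_Kyn libraries and 18.8% both below). Of tested genes, edgeR called 0.0281% (0.00938% higher and 0.0188% lower), DESeq2 called 0.188% higher and 0.0844% lower, and 4.32% had an unadjusted p under 0.05. The median log2 fold change of wei8tar2_MS over Col_Kyn was 0.12, with 33 of 41 positive (47.0% of tested genes) and 8 negative (53.0%). LHCB1.4 had the largest value, 0.63 ± 0.83 (SE, edgeR adjusted p = 1), and ELIP2 and ELIP1 had 0.07 ± 0.16 and 0.12 ± 0.32. These values do not show that the groups were alike. Each group has only 2 libraries, and in most antenna genes the Col_Kyn libraries lay on both sides of wei8tar2_MS. In ELIP1 and ELIP2 both Col_Kyn libraries lay within the wei8tar2_MS range. Without Col_Kyn replicate 2, 40 members were positive, and without replicate 1 only 3 were positive.

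The other values named in this contrast were at most 0.32 in size. Log2 fold changes of wei8tar2_MS over Col_Kyn were 0.27 ± 0.44 for LHCA1, 0.18 ± 0.40 for LHCA2, 0.05 ± 0.49 for LHCB1.3, 0.32 ± 0.44 for LHCB4.2 and -0.01 ± 0.31 for LHCB5, each with an edgeR adjusted p of 1. PSBS had -0.14 ± 0.14, HEMA1 0.21 ± 0.16, CRD1 0.13 ± 0.21, PORB 0.02 ± 0.22 and PORC 0.21 ± 0.22, again with an adjusted p of 1 each. RBCS1A had -0.03 ± 0.21, RBCS1B 0.11 ± 0.20, GLK1 0.28 ± 0.24 and GLK2 0.20 ± 0.15, and the adjusted p was 1 for all 4.

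Other genes of the same pathways were counted from lists. Photosystem subunits were mostly positive: in wei8tar2_MS over Col_MS, 11 of 12 photosystem I and 9 of 9 photosystem II subunit genes were positive, with medians of 0.30 and 0.20, and 9 and 6 had both libraries above. Of tested genes, 46.8% were positive and 26.6% had both libraries above. Calvin cycle genes had 5 of 9 positive and a median of 0.11. In Col_Kyn over Col_MS the same 3 lists had 9 of 12, 8 of 9 and 6 of 9 positive, beside 47.1% of tested genes. None of these genes was called in either comparison by edgeR, DESeq2 or limma-voom.

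The 15 other genes of tetrapyrrole and chlorophyll synthesis, such as GSA1, HEMB1 and FC1, had mostly negative values. In wei8tar2_MS 14 of 15 had a negative log2 fold change, as 53.2% of tested genes did, and 12 had both libraries below both Col_MS libraries, as 29.0% did, with a median of -0.23. In Col_Kyn 14 of 15 were negative (52.9% of tested genes) and 8 had both libraries below (23.4%), with a median of -0.18. No gene of the list was called by edgeR, DESeq2 or limma-voom. In wei8tar2_MS 5 had an unadjusted edgeR p under 0.05, as 20.6% of tested genes did. The exception to the negative values was CHLP, the geranylgeranyl reductase that makes the phytol chain, at 0.28 and 0.19.

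Light-responsive genes outside the set (HY5, HYH, CHS and others, 5 tested) were positive in 5 of 5 in both comparisons, with medians of 0.35 in wei8tar2_MS and 0.61 in Col_Kyn. Of tested genes, 46.8% were positive in wei8tar2_MS and 47.1% in Col_Kyn. edgeR called none of them, and DESeq2 called 2 in each, HYH and SPA1 in wei8tar2_MS and HYH and CHS in Col_Kyn. Over all tested genes DESeq2 called 3.21% higher in wei8tar2_MS and 2.00% in Col_Kyn. Light-signalling genes such as PIF3 and PHYA had medians of 0.13 in wei8tar2_MS and 0.10 in Col_Kyn over 8 genes; edgeR called none, and DESeq2 called PIF4 and PIF5 in wei8tar2_MS. Of 9 clock genes tested, 6 were positive in each comparison, with medians of 0.09 in wei8tar2_MS and 0.18 in Col_Kyn. CCA1 and LHY, the morning-expressed pair, rose by edgeR in both comparisons, beside 0.563% of tested genes called higher in wei8tar2_MS and 0.145% in Col_Kyn. Of 4 dark-inducible genes, 3 were positive in each comparison, and DIN1 was negative, at -0.375 in wei8tar2_MS and -0.097 in Col_Kyn. edgeR called 1 in each, DIN6 in wei8tar2_MS and DIN10 in Col_Kyn, while DESeq2 called DIN2, DIN6 and DIN10 higher in both. In Col_Kyn limma-voom did not call LHY (adjusted p = 0.0592) or DIN10 (adjusted p = 0.0579). The clock and dark-inducible genes, CHLP and the genes called by DESeq2 in these lists were named after their values were seen.

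Markers of organs moved with the groups as follows. The 8 shoot markers, all read in every library, summed to 70.1 and 70.4 CPM in wei8tar2_MS, 71.4 and 82.3 CPM in Col_Kyn, and 77.7 and 75.0 CPM in Col_MS, with median log2 fold changes of -0.002 in wei8tar2_MS and 0.14 in Col_Kyn. The 8 root markers were also read in every library. They summed to 396 and 374 CPM in wei8tar2_MS, 409 and 378 CPM in Col_Kyn, and 364 and 328 CPM in Col_MS. CASP1 alone averaged 175 CPM in wei8tar2_MS, 181 CPM in Col_Kyn and 122 CPM in Col_MS. In each comparison 5 of 8 were negative (53.2% and 52.9% of tested genes), with medians of -0.40 in wei8tar2_MS and -0.52 in Col_Kyn. These 5 were PHO1 and the low-level PLT1, SMB, COBL9 and RHD6. The part of the organ markers in the values of the antenna genes was not tested.

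**Figure D5:**
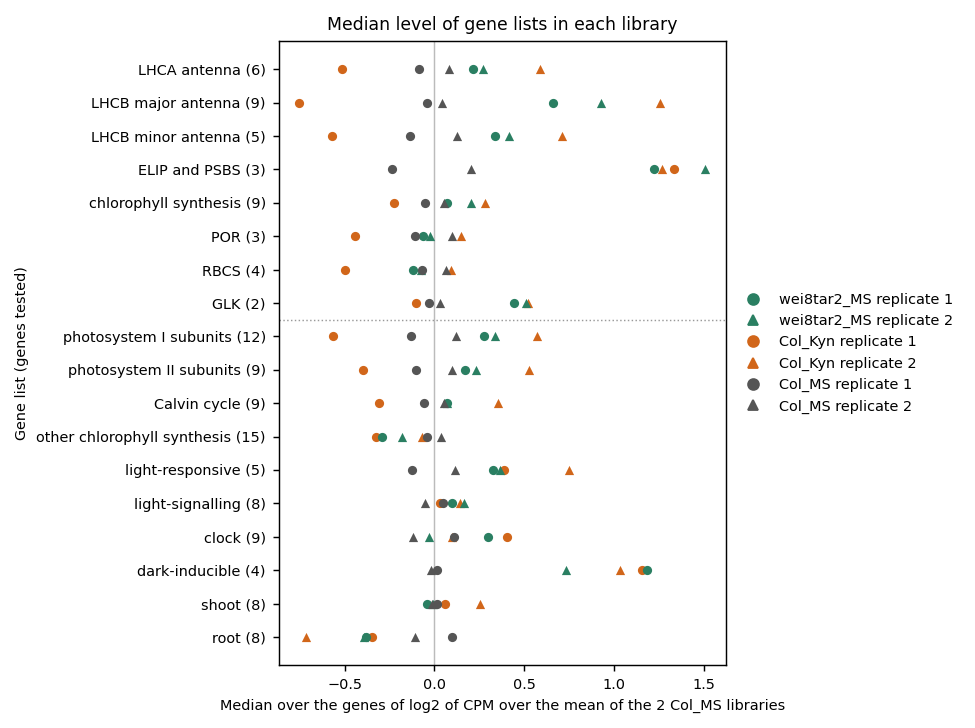
The horizontal axis is the median over each list of log2 of CPM over the mean of the 2 Col_MS libraries, with the number of genes tested in brackets; lists of the 41 members stand above the dotted line and other lists below, in the colours and symbols of the plot by library. The 2 Col_Kyn points stand on either side of the others for every list of members except ELIP1, ELIP2 and PSBS, and for the photosystem and Calvin cycle lists. For ELIP1, ELIP2 and PSBS they stand together.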

How the data were processed

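Per the submitters' processing notes, alignment used TopHat 1.3.0 and the build TAIR10. The deposited tables give, per the file headers, a raw count of uniquely mapped reads for each gene, and the authors' RPKM values divide that count by gene length and library total. Unlisted genes were taken as 0. How reads were counted, with which annotation release and with or without strand, is not given in the sources used here; the labels' protocols describe no strand marking. Symbols, coordinates and promoters came from TAIR10.1 RefSeq through the locus names.

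The counts entered edgeR 4.0.16 (R 4.3.3) with TMM factors of 0.964 to 1.03, which also scale every CPM value. After filterByExpr, 21326 genes were tested by the quasi-likelihood F-test in 1 model of all 6 libraries, and a gene was called when its Benjamini-Hochberg adjusted p, taken over all tested genes, was under 0.05. The standard error is the absolute log2 fold change over the square root of F. DESeq2 1.42.0, limma-voom (limma 3.58.1), other scalings, no filter, fewer libraries and a replicate block were alternatives. A count of 0 allows up to 3 reads (0.0943 to 0.165 CPM), which covers counting error only.

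Equal replicate numbers were checked for pairing by correlating their deviations from the group mean over all tested genes. The values were 0.202 (Col_Kyn with Col_MS), 0.022 (wei8tar2_MS with Col_MS) and -0.039 (wei8tar2_MS with Col_Kyn). The labels give no pairing, and the main fit used no replicate block. These correlations cannot show that libraries of equal number had no shared handling. The members alone were not correlated in this way. The members and lists were chosen with earlier results of these data known. Fold changes with errors are printed for called members and, per role, for the member of highest mean RPKM and the one of largest change.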

Additional observations from a re-analysis of the deposited data

How the results depend on the processing

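Of the named members' log2 fold changes under the alternatives, 556 kept direction and call, 43 reversed, 17 gained a call and 14 lost one. The members called in wei8tar2_MS over Col_MS were 2 in the edgeR test, 4 with DESeq2 and 1 with upper-quartile scaling. When only the libraries compared were fitted they were 6: LHCB1.2, LHCB1.4, LHCB1.5, LHCB2.3, ELIP2 and GLK2. In Col_Kyn over Col_MS they were 1, and 3 with DESeq2, 3 with no filter and 0 with the 2 groups alone. All genes called in wei8tar2_MS over Col_MS were 230, and 1333 with DESeq2, 1113 with no filter and 352 with the 2 groups alone. In Col_Kyn over Col_MS they were 78, and 750, 409 and 0 under the same settings, with 50 by limma-voom. In wei8tar2_MS over Col_Kyn they were 6, and 58, 26 and 11, with 12 under library totals. Members whose libraries did not overlap in that contrast were 0, and 1 with upper-quartile scaling and 3 with library totals.

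The replicate block called 367 genes in wei8tar2_MS over Col_MS, 130 genes and 2 members in Col_Kyn over Col_MS, and 12 genes in wei8tar2_MS over Col_Kyn, where it turned LHCB5 to 0.065 and RBCS1A to 0.004; the pairing is not given by the labels. The other reversals in fits that kept all libraries were, in Col_Kyn over Col_MS, CRD1 at 0.002 and RBCS1A at 0.007 with DESeq2 and RLE scaling, and PSBS at -0.011 with library totals; in wei8tar2_MS over Col_Kyn, LHCB5 at 0.069 with limma-voom and 0.048 with library totals, and RBCS1A at 0.032 with library totals.

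Leaving out each library in turn gave 4 to 1719 genes and 0 to 7 members called in wei8tar2_MS over Col_MS, 0 to 1080 genes and 0 to 4 members in Col_Kyn over Col_MS, and 4 to 17 genes and 0 to 1 member in wei8tar2_MS over Col_Kyn. The members' median spanned 0.18 to 0.36 in wei8tar2_MS over Col_MS, -0.50 to 0.60 in Col_Kyn over Col_MS and -0.27 to 0.66 in wei8tar2_MS over Col_Kyn, and the antenna genes positive in Col_Kyn over Col_MS spanned 1 to 20. Some members changed sign over these fits. In wei8tar2_MS over Col_MS the log2 fold change spanned -0.19 to 0.05 for PSBS, -0.17 to 0.13 for PORB and -0.085 to 0.051 for RBCS1A. In Col_Kyn over Col_MS it spanned -0.78 to 0.75 for LHCA2, -0.63 to 1.26 for LHCB1.3, -1.05 to 2.57 for LHCB1.4, -0.66 to 1.04 for LHCB4.2, -0.57 to 0.54 for LHCB5, -0.077 to 0.18 for PSBS, -0.086 to 0.95 for GUN4, -0.39 to 0.29 for CRD1, -0.44 to 0.23 for PORB, -0.61 to 0.15 for PORC and -0.38 to 0.29 for RBCS1A. In wei8tar2_MS over Col_Kyn it spanned -0.35 to 1.34 for LHCA1, -0.39 to 1.15 for LHCA2, -0.60 to 1.295 for LHCB1.3, -0.32 to 3.31 for LHCB1.4, -0.29 to 1.42 for LHCB4.2, -0.46 to 0.66 for LHCB5, -0.003 to 0.47 for HEMA1, -0.16 to 0.52 for CRD1, -0.27 to 0.41 for PORB, -0.12 to 0.64 for PORC, -0.32 to 0.36 for RBCS1A, -0.14 to 0.43 for RBCS1B, -0.086 to 0.75 for GLK1 and -0.004 to 0.44 for GLK2. The cause was not tested. Fits with 1 library left in a group assume that it varies like the other groups. With 2 libraries a group and the Col_Kyn libraries far apart, a missing call in the antenna genes does not show that they did not differ.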
